A study of Mus musculus with 24 samples.

Results

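The nuclear genes for subunits of the mitochondrial respiratory chain were followed through ozone exposure of the mouse lung. Members were the genes whose single platform symbol starts with Nduf followed by a, b, c, s or v and a number, with Sdh followed by a, b, c or d, with Uqcr, with Cox and a number from 4 to 8, or with Atp5. The rule found 78 genes on 147 probe sets, out of 12393 genes with a single symbol on the array. They fall into 32 genes of complex I, 4 of complex II, 8 of complex III, 17 of complex IV and 17 of complex V, the ATP synthase. Ndufa4, which carries a complex I name, was counted with complex IV, to which its protein is now assigned. The rule leaves out 6 entries that carry several symbols, among them the Ndufb4 family, and subunits with other names such as Ndufab1 and Cyc1. The rule uses gene symbols and no measured difference, though it was chosen with earlier results of these data known.

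RNA came from the left lung lobe of 24 male mice, with 1 Affymetrix array per mouse and 3 mice in each of 8 groups. Mice of C3H/HeOuJ (OuJ), a strain with a sufficient Tlr4, and of C3H/HeJ (HeJ), whose Tlr4 is dominant negative, breathed air or were exposed to ozone for 6, 24 or 48 h. Tlr4 is the cell surface receptor for bacterial lipopolysaccharide, and ozone is an oxidant gas that injures the airway lining. All groups share the C3H background, while the sources used here give neither the age of the mice nor the ozone concentration.

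The respiratory chain sits in the inner mitochondrial membrane. Complexes I and II take electrons from NADH and succinate, complex III passes them to cytochrome c and complex IV hands them to oxygen, while complexes I, III and IV pump protons that complex V uses to make ATP. A few core subunits are coded by mitochondrial DNA and all the others by nuclear genes, whose transcripts are known to be abundant and to be set together by factors such as NRF1, GABPA (an ETS factor) and YY1. Several subunits of complex IV exist as a widespread and a muscle form, and Cox4i2 is a form of subunit 4 known for its expression in lung.

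Promoters are shown for 3 genes that passed in the comparisons below and hold a match to a motif of those factors (Ndufa6, Atp5pb and Atp5o), and for the muscle and widespread forms of subunit 7a (Cox7a1 and Cox7a2). RefSeq promoter sequences of build GRCm38.p6, from 250 bases before to 50 bases after the start, were at hand for 64 of the 78 members. Each sequence reads 5′ to 3′ along the gene's strand, and capitals mark a motif match on either strand. Ndufa6 lies at chr15:82354242-82354541 on the minus strand, Atp5pb at chr3:105959214-105959513 on the minus strand, Atp5o at chr16:91931581-91931880 on the minus strand, Cox7a1 at chr7:30183921-30184220 on the plus strand and Cox7a2 at chr9:79759804-79760103 on the minus strand.
Ndufa6: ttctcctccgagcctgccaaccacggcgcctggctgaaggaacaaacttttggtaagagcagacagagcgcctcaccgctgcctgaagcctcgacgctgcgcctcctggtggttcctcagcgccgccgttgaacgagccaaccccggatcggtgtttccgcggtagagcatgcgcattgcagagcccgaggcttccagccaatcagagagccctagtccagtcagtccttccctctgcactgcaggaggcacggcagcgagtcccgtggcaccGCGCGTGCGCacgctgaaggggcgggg
Atp5pb: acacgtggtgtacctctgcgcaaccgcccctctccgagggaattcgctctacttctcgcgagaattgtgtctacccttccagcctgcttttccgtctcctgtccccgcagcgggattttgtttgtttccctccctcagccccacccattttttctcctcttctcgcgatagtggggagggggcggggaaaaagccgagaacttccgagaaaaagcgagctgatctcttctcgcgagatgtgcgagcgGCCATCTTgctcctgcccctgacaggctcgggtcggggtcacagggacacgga
Atp5o: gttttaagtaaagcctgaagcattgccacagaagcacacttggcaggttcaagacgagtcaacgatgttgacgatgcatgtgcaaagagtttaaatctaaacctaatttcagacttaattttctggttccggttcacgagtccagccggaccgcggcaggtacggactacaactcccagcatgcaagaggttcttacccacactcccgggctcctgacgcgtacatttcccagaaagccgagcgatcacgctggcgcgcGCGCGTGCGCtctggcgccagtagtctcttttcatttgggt
Cox7a1: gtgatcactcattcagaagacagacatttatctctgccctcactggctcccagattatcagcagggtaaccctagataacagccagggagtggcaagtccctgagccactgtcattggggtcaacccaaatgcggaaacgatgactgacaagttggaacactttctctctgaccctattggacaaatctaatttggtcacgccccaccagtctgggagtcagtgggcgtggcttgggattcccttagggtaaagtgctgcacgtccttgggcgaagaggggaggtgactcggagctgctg
Cox7a2: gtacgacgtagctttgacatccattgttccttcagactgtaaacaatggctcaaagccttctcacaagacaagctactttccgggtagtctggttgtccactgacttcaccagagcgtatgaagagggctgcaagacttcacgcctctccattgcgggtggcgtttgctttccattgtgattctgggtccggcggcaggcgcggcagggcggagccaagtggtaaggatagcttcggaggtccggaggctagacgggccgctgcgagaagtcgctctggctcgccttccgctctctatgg
The capitals in Ndufa6 and Atp5o are a match to the core of the NRF1 consensus, read on the other strand, and those in Atp5pb a match to the YY1 motif AANATGGC, also on the other strand. None of the 4 motifs searched occurred in the windows shown for Cox7a1 and Cox7a2. Over all members with a sequence, the NRF1 core was in 11.6% of 69 promoters against 2.27% of 32851 promoters in the RefSeq table. The ETS motif CCGGAAG was in 24.6% against 8.86%, the YY1 motif in 21.7% against 6.05%, and the consensus of the muscle factor MEF2 in 0 of 69 against 0.557%. Both strands were searched, and no match of a motif shown overlaps another. Such a match is a run of letters in a window and shows no binding.

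Of the 78 members, 77 were tested among 8008 genes. Cox7c, a small subunit of complex IV, stayed under the signal cut of 218.3 on every array, with a mean signal of 64.7, and was not tested. The cut was passed on all 24 arrays by 74 members, on 21 arrays by Cox8b, on 11 by Ndufb1 and on 5 by Cox7a1. Signals are the authors' array intensities, and each difference below is of log2(signal + 16), given ± SE with 3 arrays a group, from 1 limma fit to all 24 arrays. A gene passed at a Benjamini-Hochberg adjusted p under 0.05 over all 8008 genes of the comparison. With 3 arrays a group, precision is limited throughout.

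Transcripts of the chain were abundant, with a small fitted spread between mice. Mean signals over the 24 arrays had a median of 3616 among the complex V genes, 3339 in complex IV, 1894 in complex I, 1898 in complex II and 1843 in complex III, as levels of different probe sets that are not on a common scale per molecule. The within-group SD of log2(signal + 16), as moderated by limma, had a median of 0.14 over the 77 members and of 0.18 over all genes tested. The intensity trend of the fit draws this SD toward the value usual at a gene's signal level, so it is not the raw spread between mice. Atp5k, which codes for subunit e of the ATP synthase, had the widest spread among the members, at 0.41.

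Facts of the whole series touch these values. Array medians ran from 200.1 to 229.3, and arrays of a group correlated at r from 0.966 to 0.979 over all probe sets. The lung markers Sftpc and Scgb1a1 were high on every array, from 27216 to 40839 and from 24983 to 37185. Tlr4 signals of the strains overlapped in air, but the HeJ allele still makes a transcript, so the signal checks no label. The sample descriptions carry 3 code series: air and 6 h of both strains in the first, 24 and 48 h of OuJ in the second and 24 and 48 h of HeJ in the third. Ozone at 24 or 48 h against air therefore cannot be told apart from the code series, whereas 6 h against air, 48 h against 24 h and the strains in air each lie within a series. The codes of 4 arrays, HeJ air replicate 2, HeJ 6 h replicate 2 and HeJ 24 h replicates 1 and 3, carry a suffix, and what series and suffix stand for is not stated.

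In OuJ lungs no member passed at any time against air. At 6 h 0 of 77 passed with limma, where 0.137% of all genes did, and 4 members had an unadjusted p under 0.05. At 24 h the count was again 0, where 6.57% of all genes passed, with 2 members at an unadjusted p under 0.05. At 48 h it was 0, where 7.9% of all genes passed, with 4 members at an unadjusted p under 0.05. Such a p was held by 837, 1594 and 1718 of the 8008 genes at 6, 24 and 48 h. The medians of the members were 0.01, -0.01 and -0.03 at 6, 24 and 48 h, against -0.02, -0.03 and -0.02 over all genes. The 95% interval of the difference lay inside 1.5-fold either way for 69 members at 6 h (73.9% of all genes), for 72 at 24 h (66.8% of all genes) and for 70 at 48 h (65.9% of all genes).

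By complex, the core subunits in OuJ gave small differences with intervals around 0. Ndufs1, the largest iron-sulfur subunit of complex I, had signals of 916, 1004 and 919 in air and 863, 941 and 843 at 48 h, a difference of -0.10 ± 0.14 (95% interval -0.39 to 0.19). Ndufv1, which binds NADH, had 1564, 1429 and 1603 in air and 1479, 1514 and 1466 at 48 h, a difference of -0.04 ± 0.09 (95% interval -0.24 to 0.15). In both genes the mice in air and at 48 h overlapped. Among the complex III genes Uqcrc1, a core subunit, differed by -0.02 ± 0.13 at 48 h and Uqcrfs1, the Rieske iron-sulfur protein, by 0.0015 ± 0.11. The interval of Uqcrc1 ran from -0.27 to 0.24. Cox4i1, the widespread form of subunit 4, had 6068, 5309.8 and 5604 in air and 5354, 5966 and 4819 at 48 h, and a difference of -0.08 ± 0.09. For Atp5b, the catalytic beta subunit of the ATP synthase, the signals were 4212, 5442 and 4742 in air and 5278, 6154 and 5183 at 48 h, a difference of 0.21 ± 0.10 (95% interval -0.004 to 0.42). The groups of Cox4i1 and of Atp5b overlapped as well.

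By the probe set with the highest mean of each gene, complex II was the only complex with all genes below air at every OuJ time. Its 4 genes are few, however, and none passed. Its median was -0.17 at 6 h, -0.10 at 24 h and -0.13 at 48 h. Sdhd, a membrane anchor of the complex, had 2031, 987 and 909 in OuJ air and 812, 761 and 780.4 at 6 h, where the difference was -0.63 ± 0.22 (adjusted p = 0.256). OuJ air replicate 1 stood far above every other array for this gene, and without it the difference was -0.27 (adjusted p = 0.823). Sdha, the flavoprotein that oxidises succinate, had 2343, 2038 and 2026 in OuJ air and 1692, 1816 and 1919 at 6 h, a difference of -0.24 ± 0.10 (adjusted p = 0.382). The second kept probe set of Sdha showed no fall at 6 h (0.007) or at 24 h (0.02), while at 48 h it differed by -0.14. The 3 mice at 6 h lay below the 3 in air in both genes, as they did for 7 members in all, while 6 members lay wholly above (9.03% and 7.92% of all genes).

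Nearest to the threshold in OuJ at 24 and 48 h was Cox6b2, known as the testis form of subunit 6b. Its signals were 496, 421 and 506 in air, 349.6, 341 and 392 at 24 h and 311, 440.3 and 338 at 48 h. The 24 h mice lay below all air mice, and 1 mouse at 48 h lay within the air range. The differences were -0.38 ± 0.14 at 24 h (adjusted p = 0.124) and -0.38 ± 0.14 at 48 h (adjusted p = 0.106), and without OuJ 48 h replicate 2 the latter was -0.52 with an adjusted p of 0.0363. Its widespread counterpart Cox6b1 differed by -0.17 ± 0.09 at 48 h (adjusted p = 0.314). Ndufb9, an accessory subunit of the membrane arm of complex I, differed by -0.22 ± 0.10 and -0.25 ± 0.10 at 24 and 48 h (adjusted p = 0.226 and 0.13).

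**Figure D1:**
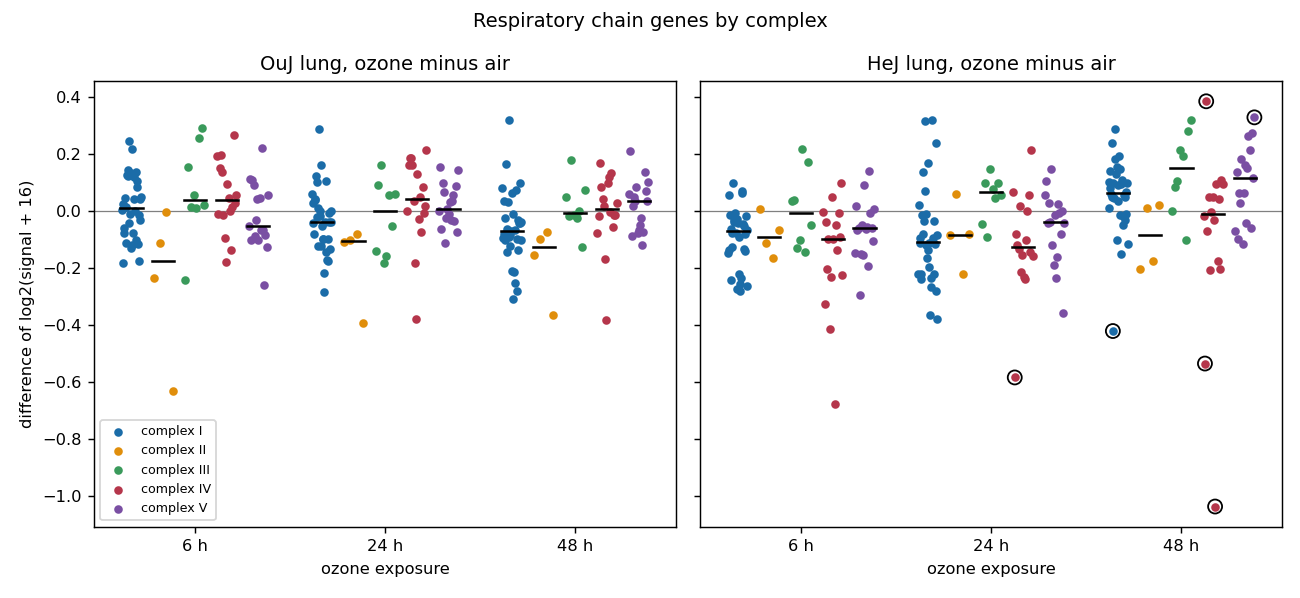
Difference of log2(signal + 16) between ozone and air for each of the 77 genes tested (1 point a gene), by exposure in hours and by complex, in OuJ (left) and HeJ (right); lines mark the median of a complex and rings the genes that passed at an adjusted p under 0.05. No OuJ gene is ringed, 1 HeJ gene is at 24 h and 5 are at 48 h, with Cox7a1 lowest at -1.04.

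In HeJ lungs no member passed at 6 h, 1 passed at 24 h and 5 at 48 h. At 6 h 0 of 77 members passed with limma, where 0.0375% of all genes did, with 4 members at an unadjusted p under 0.05. Over all genes 721 of 8008 had such a p. The member median was -0.07, against -0.02 over all genes, and 62 of 77 differences were negative, as were 55.2% of all genes. At 24 h 1 member passed and it was lower (3.96% of all genes passed lower and 7.11% in either direction), with a member median of -0.08 against -0.02 over all genes. At 48 h 2 members passed higher and 3 lower, where 5.66% of all genes passed higher and 6.42% lower. The 5 are therefore a smaller share of the members than the 12.1% that passed among all genes. The count at 48 h fell to 3 without HeJ air replicate 1 or HeJ 48 h replicate 1, to 2 without HeJ air replicate 2 or HeJ 48 h replicate 3, and to 1 without HeJ 48 h replicate 2 or without the 4 arrays with a suffix. The 95% interval lay inside 1.5-fold for 69 members at 6 h (74.7% of all genes), 68 at 24 h (65.3% of all genes) and 67 at 48 h (62.1% of all genes).

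Ndufa6, an accessory subunit of the matrix arm of complex I, was the only complex I gene that passed, and it fell. Its signals in HeJ were 2235, 2490.5 and 2396 in air, 2166, 2157 and 2427 at 6 h, 2098, 2327 and 2313 at 24 h and 1551, 1730.2 and 2056 at 48 h. All 3 mice at 48 h lay below every HeJ mouse of the earlier groups. The 48 h mean of 1779 ± 256 (SD, n = 3) compares with 2374 ± 129 in air (SD, n = 3), a difference of -0.42 ± 0.10 (adjusted p = 0.00668). Without HeJ 48 h replicate 1 it was -0.33 with an adjusted p of 0.052. OuJ had 1947, 1919.9 and 2129 in air and 1702, 1939.6 and 1788 at 48 h, which overlap, with a difference of -0.14 ± 0.10 (adjusted p = 0.445). The strain difference of the 48 h change, -0.28 ± 0.14, did not pass (adjusted p = 0.632). Ndufa6 is read by a single probe set, and its promoter is the first sequence above.

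No other complex I gene passed in HeJ. At 48 h 23 of 32 differences were positive, with a median of 0.06, against 44.8% positive over all genes. The core subunits Ndufs1, Ndufs3, Ndufs7, Ndufs8, Ndufv1 and Ndufv2 differed by -0.05, -0.02, -0.03, -0.01, 0.07 and 0.10, with adjusted p from 0.605 to 0.966. At 24 h 25 of 32 were negative (54.2% of all genes), with a median of -0.11, while Ndufs1 and Ndufv1 gave 0.32 ± 0.14 and 0.24 ± 0.09 (adjusted p = 0.171 and 0.125). For Ndufs1 the HeJ signals were 964, 927 and 734 in air and 1190.0, 1056 and 1027 at 24 h, which do not overlap, and 1134, 739 and 706 at 48 h. The last group overlaps with both of the others.

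In complex III no gene passed, and the nearest was Uqcrq, a small accessory subunit. Its HeJ signals were 1708, 1384 and 1838 in air, 1778, 1661 and 1659.6 at 24 h and 2067, 2031 and 2016 at 48 h. The mice at 48 h lay close together and above all others of the strain. The difference from air was 0.32 ± 0.11 (adjusted p = 0.0671). It passed without HeJ air replicate 3 (0.40, adjusted p = 0.0406) or HeJ 6 h replicate 3 (adjusted p = 0.0329), and was 0.20 without HeJ air replicate 2 (adjusted p = 0.317). In complex II the 4 differences at 48 h in HeJ ran from -0.20 (Sdha) to 0.02 (Sdhd), with a median of -0.08.

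Complex IV held 3 of the 5 genes that passed at 48 h in HeJ, 1 higher and 2 lower. Cox5a, a widespread nuclear-coded subunit, rose. Its HeJ signals were 2954, 2779 and 3514 in air, 2966, 3206 and 2800.3 at 6 h, 2786, 3278 and 2672 at 24 h and 3604, 4019 and 4449 at 48 h. Every mouse at 48 h lay above every other mouse of either strain. The difference from air was 0.38 ± 0.12 (adjusted p = 0.0373), and the other probe sets of the gene gave at least 0.33. The call was lost without any of 4 HeJ arrays, with adjusted p of 0.11 and 0.153 without air replicates 1 and 2 and of 0.09 and 0.158 without 48 h replicates 2 and 3. In OuJ Cox5a had 2309, 2631 and 3210.0 in air and 3212, 2973 and 2894 at 48 h, which overlap, with a difference of 0.17 ± 0.12 (adjusted p = 0.469).

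Cox4i2, the lung form of subunit 4, passed as lower in HeJ at both late times, and that call rests on 1 air array. The HeJ signals were 716, 1483 and 811 in air, 752, 758 and 759 at 6 h, 570.2, 581 and 754 at 24 h and 679, 741 and 550.4 at 48 h. HeJ air replicate 2, whose code carries a suffix, stood far above all 23 other arrays, and both late groups overlap with air. The differences were -0.58 ± 0.18 at 24 h (adjusted p = 0.0453) and -0.54 ± 0.18 at 48 h (adjusted p = 0.0483). Without that array they were -0.27 and -0.22, with adjusted p of 0.271 and 0.348. The 24 h call was also lost without any 1 of OuJ air replicates 1 to 3, OuJ 6 h replicate 3, OuJ 24 h replicates 1 and 2, OuJ 48 h replicates 1 to 3, HeJ 6 h replicate 2, HeJ 24 h replicates 1 and 2 and HeJ 48 h replicate 1. The 48 h call was lost under 29 of 35 other settings. OuJ ran from 638 to 807 over its 12 arrays with no difference past 0.16 ± 0.18. Cox4i1, the widespread form, ran from 5652 to 7004 in HeJ, and its differences were 0.07 ± 0.09 at 24 h and -0.02 ± 0.09 at 48 h (adjusted p = 0.73 and 0.928).

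Atp5pb, the b subunit of the stalk that holds the ATP synthase together, was the complex V gene that passed at 48 h in HeJ, and it rose. Signals were 3428, 3612 and 4089 in air, 3634, 3923 and 3616 at 6 h, 3561, 3592 and 3616 at 24 h and 4383, 4698 and 4880.3 at 48 h. As with Cox5a, the 48 h mice lay above every other mouse of either strain. The difference from air was 0.33 ± 0.10 (adjusted p = 0.0285), and its second probe set gave 0.26. The call was lost without any of 4 HeJ arrays, with adjusted p of 0.125 and 0.0858 without air replicates 1 and 2 and of 0.0812 and 0.102 without 48 h replicates 2 and 3. The catalytic subunits did not pass: Atp5a1 (alpha) differed by -0.07 ± 0.09 and Atp5b (beta) by 0.14 ± 0.10 (adjusted p = 0.697 and 0.452). The genes of the proton-driven ring, Atp5g1, Atp5g2 and Atp5g3, differed by 0.18, -0.12 and 0.06 (adjusted p from 0.456 to 0.79).

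**Figure D2:**
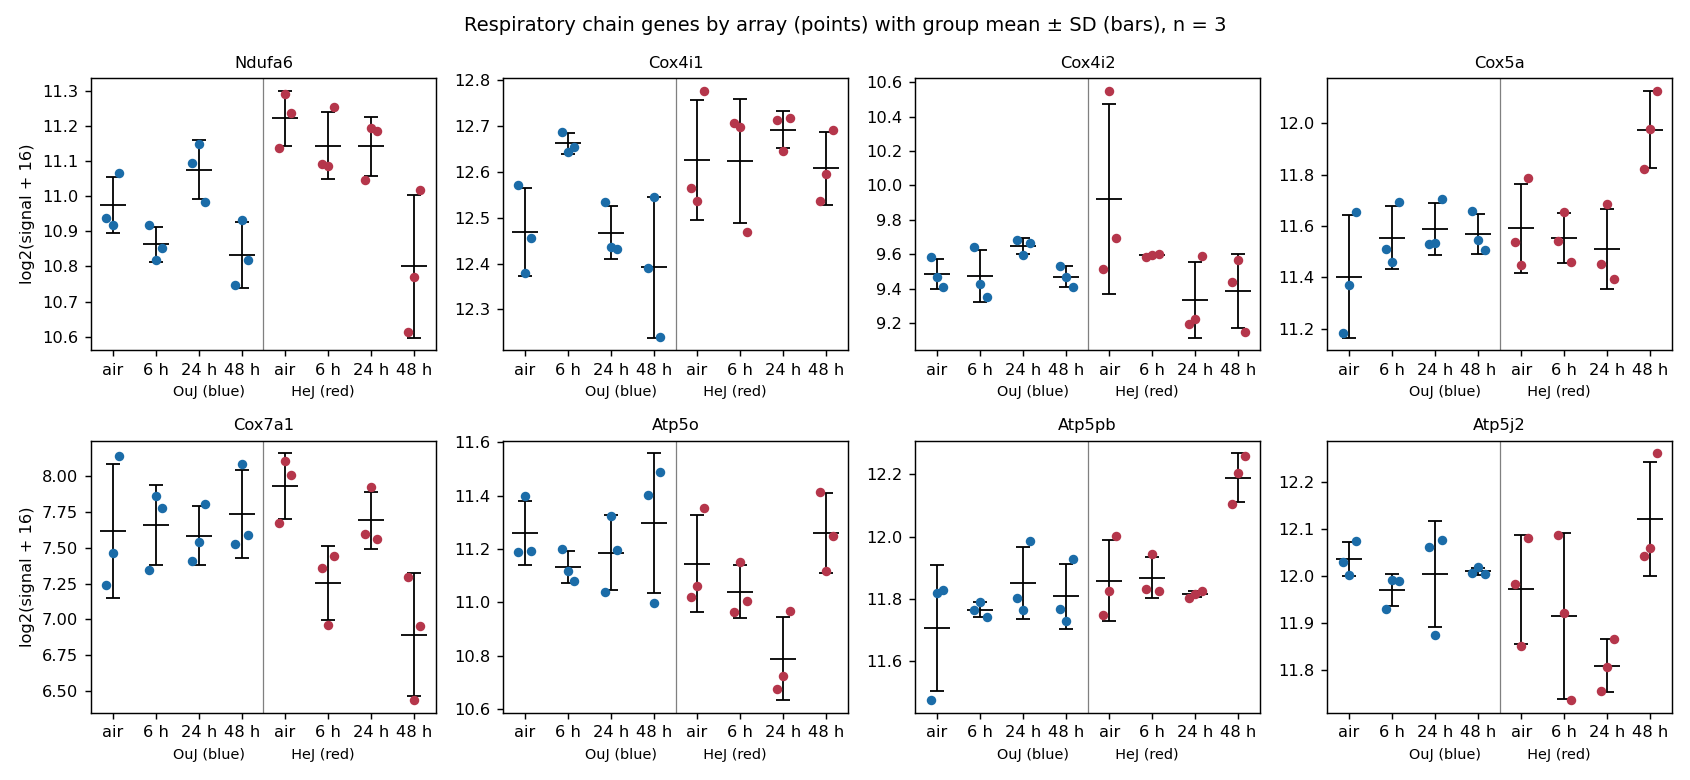
Log2(signal + 16) of 8 respiratory chain genes on each array (points) with group mean ± SD (bars, n = 3), for OuJ (blue) and HeJ (red) in air and after 6, 24 and 48 h of ozone; each panel has its own axis range. Cox5a and Atp5pb are highest in HeJ at 48 h, Ndufa6 and Cox7a1 are lower there than in HeJ air, and HeJ air replicate 2 stands apart for Cox4i2.

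Cox7a1, the heart and skeletal muscle form of subunit 7a, gave the largest fall among the members. The HeJ signals were 188, 259.9 and 242 in air, 148, 108 and 158 at 6 h, 177, 227 and 173 at 24 h and 141, 70.5 and 108 at 48 h. The groups at 6 and 48 h lay wholly below air, and the 24 h group overlapped with air. The difference at 48 h was -1.04 ± 0.25 (adjusted p = 0.00903), and without HeJ 48 h replicate 2 it was -0.81 with an adjusted p of 0.0638, without the 4 arrays with a suffix -0.95 with 0.0506. At 6 h the difference was -0.68 ± 0.25 and did not pass (adjusted p = 0.421). OuJ ran from 136 to 266 over all 12 arrays, with differences of 0.05, -0.03 and 0.12 at 6, 24 and 48 h. The strain difference of the 48 h change was -1.16 ± 0.36 and did not pass (adjusted p = 0.333). These signals lie near or under the cut, where a low probe set is read with least certainty.

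The other forms of these subunits did not pass. Cox7a2, the widespread form, had 8713, 9363 and 10189 in HeJ air and 9394, 9877 and 10936 at 48 h, which overlap, with a difference of 0.10 ± 0.10 (adjusted p = 0.593). Cox6a2 and Cox8b, muscle forms of subunits 6a and 8, were measured too. Cox6a2 had 986, 1157 and 1073 in HeJ air, 912, 497 and 1122 at 6 h and 1041, 934 and 813 at 48 h, a 48 h difference of -0.21 ± 0.20 (adjusted p = 0.572). Cox8b had 343, 288 and 318 in HeJ air and 322, 237 and 264 at 48 h, a difference of -0.20 ± 0.22 (adjusted p = 0.619). HeJ 6 h replicate 2 was the lowest of all 24 arrays for Cox6a2. The widespread forms Cox6a1 and Cox8a differed by 0.05 and 0.04 at 48 h in HeJ (adjusted p = 0.815 and 0.883).

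Cardiac muscle markers were summed in the same mice. Mouse lung is known to hold heart-type muscle in the walls of its pulmonary veins, and 15 of 18 cardiac markers were tested. Their summed signal on each HeJ array was 14614, 16929 and 15867 in air, 17649, 16369 and 19431 at 24 h, and 12470, 10461 and 12223 at 48 h. The 48 h mice thus lay below all HeJ mice in air and at 24 h. Over the list, 14 of 15 differences were negative at 48 h in HeJ with a median of -0.46, where 55.2% of all genes were negative with a median of -0.03. Of the 15, 1 passed, a share close to the 6.42% of all genes that passed lower: Tcap, a titin-binding protein of the sarcomere (-1.04 ± 0.28, adjusted p = 0.0175). The muscle creatine kinase Ckm, 1 of 2 skeletal muscle markers tested, also fell (-0.75 ± 0.24, adjusted p = 0.045). The summed signal of these 2 markers overlapped, however, at 477 to 918 at 48 h in HeJ and 796 to 1361 in HeJ air. The fast skeletal myosins Myh4 and Myh1 had mean signals of only 18.1 and 43.1 and were not tested. At 6 h HeJ replicate 2 had the lowest cardiac sum of all 24 arrays, 6301, and the other two 12074 and 17817. In OuJ the sums ran from 12711 to 23062 over its 12 arrays, and no cardiac marker passed. Smooth muscle markers went the other way in HeJ, with summed signals of 8216 to 9701 at 48 h against 5218 to 7162.5 in air. In whole lobes, fewer cells of a type and less RNA per cell cannot be told apart. The part of muscle content of any type in the Cox7a1 difference was not tested. Endothelial markers fell in the same mice too, 7 of 10 at 48 h in HeJ, with summed signals of 29696 to 32956 against 38794 to 43107 in air. In OuJ, where Cox7a1 did not pass, 3 of 10 fell and the sums were 26761 to 29302 against 32776 to 37175. Blood cell markers fell in HeJ at 48 h as well: both red cell markers tested (sums of 2265 to 2793 against 4405 to 6550 in air), 5 of 5 B cell markers and 6 of 7 T and NK cell markers. Against these counts stand the 6.42% of all genes that passed lower in HeJ and the 4.21% in OuJ. The lymphocyte sums were lower in OuJ at 48 h too. B cell sums were 1654 to 1814 against 3078 to 3816 in OuJ air, and T and NK cell sums 1909 to 2118 against 3375 to 4043. Red cell sums in OuJ overlapped, at 4644.5 to 6439 against 4194 to 6555 in air. The part of these cells in the member differences at 48 h was not tested.

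**Figure D3:**
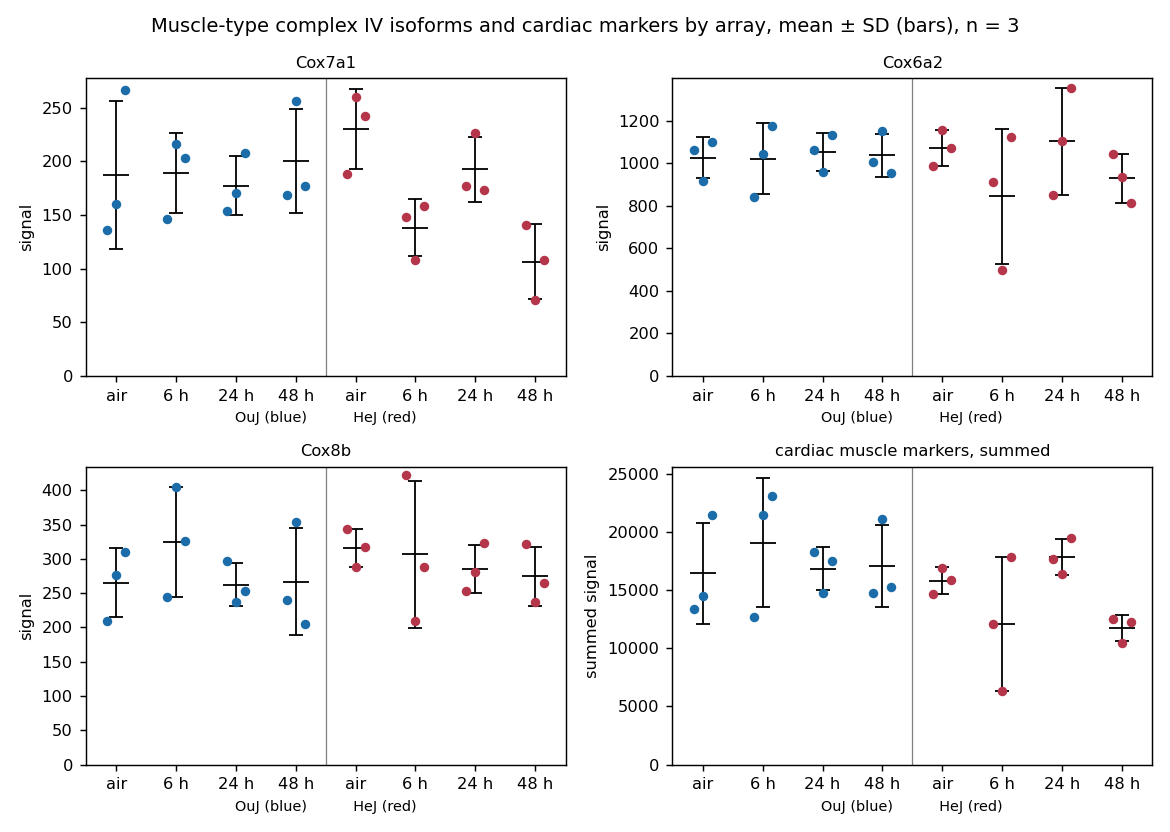
Signal of Cox7a1, Cox6a2 and Cox8b and the summed signal of 15 cardiac muscle markers on each array (points) with group mean ± SD (bars, n = 3), for OuJ (blue) and HeJ (red); axes start at 0. In HeJ at 48 h Cox7a1 and the cardiac sum lie below all HeJ air mice, whereas Cox6a2 and Cox8b overlap with air.

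Between 24 and 48 h of ozone 5 members passed in HeJ and none in OuJ, though no strain difference of this change passed. In OuJ 0 of 77 members passed with limma, where 0.15% of all genes did, 1 member had an unadjusted p under 0.05 and the median was -0.02 (all genes 0.01). In HeJ 4 members passed higher, where 2.62% of all genes did, and 1 lower, where 2.83% did (5.46% in either direction), with 22 members at an unadjusted p under 0.05. Of the 8008 genes, 1664 had such a p in HeJ and 639 in OuJ. The HeJ median was 0.12 against -0.0029 over all genes, and 57 of 77 differences were positive where 49.6% of all genes were. Groups did not overlap for 19 members that were higher at 48 h and 4 that were lower, against 12.3% and 11.6% of all genes. By complex the HeJ medians were 0.19 in complex I, -0.0028 in complex II, 0.09 in complex III, 0.05 in complex IV and 0.18 in complex V.

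The genes that rose from 24 to 48 h in HeJ were 3 of the ATP synthase and Cox5a. Atp5o, known as OSCP, joins the stalk of the synthase to its catalytic head, and its signals were 1619, 1674 and 1986 at 24 h and 2716, 2204 and 2417 at 48 h. The difference was 0.47 ± 0.13 (adjusted p = 0.0301), with no overlap. In air the signals were 2061, 2122 and 2600.2, wholly above the 24 h mice and overlapping with those at 48 h. Atp5j2, subunit f of the membrane part, had 3442, 3565 and 3720.3 at 24 h and 4205, 4253 and 4892 at 48 h, a difference of 0.31 ± 0.09 (adjusted p = 0.0486). The air signals of Atp5j2 were 4033, 3678 and 4319, which overlap with both. Cox5a differed by 0.46 ± 0.12 (adjusted p = 0.025) and Atp5pb by 0.37 ± 0.10 (adjusted p = 0.0268), from the signals given above. Ndufa6 fell by 0.34 ± 0.10 on the log2 scale (adjusted p = 0.0425), and Cox7a1 differed by -0.80 ± 0.25 without passing (adjusted p = 0.0651), though it passed without HeJ 48 h replicate 1 at an adjusted p of 0.0452. In OuJ the same comparison gave 0.11 for Atp5o, 0.01 for Atp5j2, -0.02 for Cox5a, -0.04 for Atp5pb and -0.24 for Ndufa6, none of which passed.

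Not all of complex I shared the positive direction. Ndufs1 and Ndufv1, core subunits of the NADH-oxidising arm, differed by -0.37 ± 0.14 and -0.17 ± 0.09 between 24 and 48 h in HeJ (adjusted p = 0.127 and 0.301). Ndufs8 and Ndufv2, iron-sulfur subunits, differed by 0.27 ± 0.11 and 0.18 ± 0.10 (adjusted p = 0.155 and 0.328). The value of Ndufs8 depends on its probe set: the 6 kept ones ran from -0.57 to 0.49, the widest disagreement of any member in this comparison. In complex V the large catalytic subunits gave small differences, at -0.12 for Atp5a1, 0.03 for Atp5b and -0.06 for the central shaft gene Atp5c1, while 15 of 17 genes were positive.

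Cell markers also differed between the HeJ mice at 24 and 48 h. Summed signals that did not overlap were those of 16 cell cycle genes (5764 to 6614 at 24 h, 8402 to 9276 at 48 h), 10 endothelial markers (38191 to 40072, then 29696 to 32956), the 15 cardiac markers given above and 2 red cell markers (2959 to 5429, then 2265 to 2793). Of these lists 4 cell cycle genes passed higher, 2 endothelial and 2 cardiac markers lower and no red cell marker. Over all genes 2.62% passed higher and 2.83% lower in this comparison. Adipose, ciliated and club cell sums did not overlap either, with 0 of 4, 0 of 3 and 1 of 6 genes passing. In OuJ the cell cycle sum ran from 5617 to 6931 at 24 h and from 9352 to 10508 at 48 h. The endothelial sum was lower at 48 h in OuJ too, at 26761 to 29302 against 31231 to 33127 at 24 h. The red cell sum was higher in OuJ at 48 h (4644.5 to 6439 against 3411.5 to 4587.5), and the cardiac sums overlapped. The part of these cells in the member differences was not tested.

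A measure of RNA quality had another mean in the same groups, with ranges that overlap. The ratio of the 5′ to the 3′ Gapdh control probe set in HeJ was 0.753 ± 0.174 at 24 h and 0.593 ± 0.0878 at 48 h (SD, n = 3), with 0.558 ± 0.0565 in air, and the actin ratio was 0.765 ± 0.0779 and 0.661 ± 0.0486 at 24 and 48 h. With the Gapdh ratio as a covariate, an alternative chosen after the data were seen, 1 of the 5 passed, Ndufa6. A fit within the HeJ code series alone, which has 6 arrays, gave 0, with Cox5a still at 0.46 and an adjusted p of 0.0686. Counts also depended on single arrays: they were 0 without HeJ 24 h replicate 1, 1 without HeJ 24 h replicate 3 and 1 each without HeJ 48 h replicate 2 or 3, and 0 without the 4 arrays with a suffix. Left out in turn, HeJ 24 h replicate 2 and OuJ air replicate 2, 6 h replicate 3 and 48 h replicate 3 each left 3. The member median was positive in each of these fits.

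**Figure D4:**
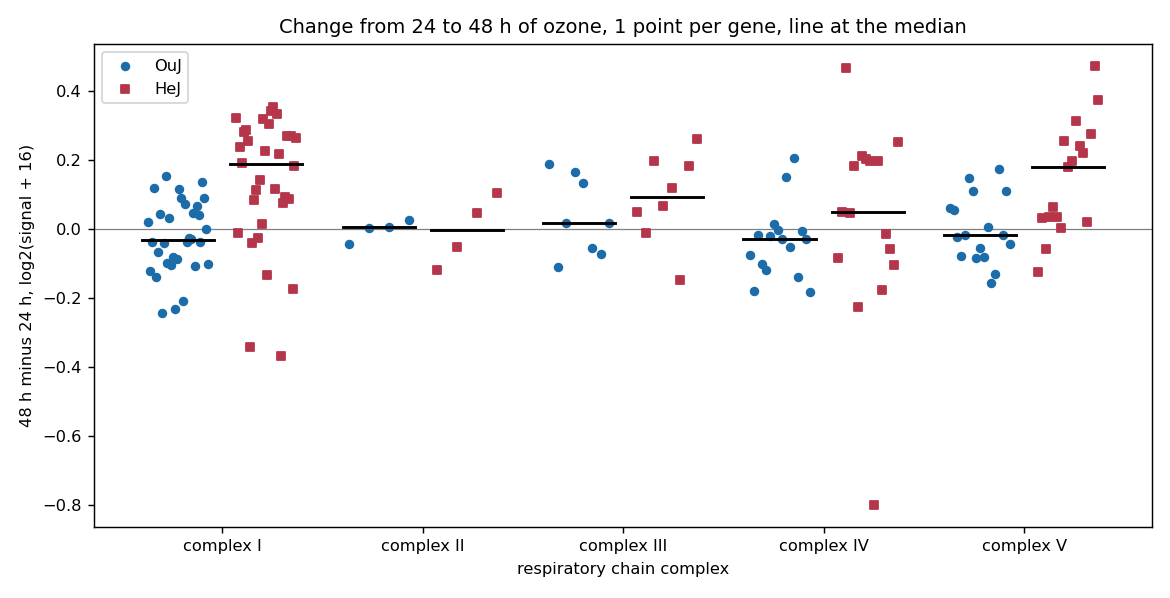
Difference of log2(signal + 16) between 48 and 24 h of ozone for each gene (1 point a gene) by complex, in OuJ (blue circles) and HeJ (red squares), with a line at the median of a complex. In HeJ the medians of complexes I and V lie at 0.19 and 0.18, in OuJ at -0.03 and -0.02.

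The strain difference of the change from 24 to 48 h was tested for each gene, and 0 of 77 members passed with limma, as did 0% of all genes. At an unadjusted p under 0.05 were 12 members and 885 of 8008 genes. The member median of this difference, HeJ minus OuJ, was 0.15 against -0.01 over all genes, and the OuJ and HeJ samples in it lie in separate code series. The smallest p values belonged to Ndufa2, an accessory subunit of complex I (0.42 ± 0.14, adjusted p = 0.276), and Atp5pb (0.41 ± 0.14, adjusted p = 0.286). For the change from air, 0 of 77 members passed in the strain difference at 6 h (0.0125% of all genes), 0 at 24 h (0.0125%) and 0 at 48 h (0%), with 3, 6 and 6 members at an unadjusted p under 0.05. Of the 8008 genes, 460, 627 and 658 had such a p. The 95% intervals of these strain differences are wider: 54, 49 and 56 members lay inside 1.5-fold at 6, 24 and 48 h, against 45.1%, 43.7% and 43.4% of all genes.

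Between the strains in air 0 of 77 members passed with limma, where 0.774% of all genes did, with 7 members at an unadjusted p under 0.05. Over all genes 1138 of 8008 had such a p. The member median, OuJ minus HeJ, was -0.07 against -0.03 over all genes, and 14 of 16 complex IV differences were negative, as were 55.3% of all genes. RNA quality stood apart between the same groups: the Gapdh 5′ to 3′ ratio was 0.781 to 0.933 in OuJ air and 0.511 to 0.621 in HeJ air, and the actin ratio 0.848 to 0.89 and 0.571 to 0.69. With the Gapdh ratio as a covariate, chosen after the data were seen, the median was -0.05 and again 0 members passed. Cox5b, a nuclear-coded subunit that binds zinc, came nearest at -0.31 ± 0.10 (adjusted p = 0.15). The 4 kept probe sets of Cox5b differed in sign, from -0.32 to 0.17. Atp5b ran from 4212 to 6154 over the OuJ arrays and 3743 to 4873 over the HeJ arrays, with an air difference of 0.25 ± 0.10 (adjusted p = 0.263). The 95% interval lay inside 1.5-fold for 69 members (71.1% of all genes).

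Around the chain, some other mitochondrial genes passed at 48 h in each strain and most did not. The subunits that passed did so in HeJ only, though none passed in the strain difference of the 48 h change. The counts below stand against 3.7% of all genes that passed higher and 4.21% lower in OuJ at 48 h, and 5.66% and 6.42% in HeJ, and none was tested against another list. Cycs, cytochrome c itself, rose in HeJ at 48 h (0.73 ± 0.13, adjusted p = 0.000545), the only 1 of 10 carriers and subunits outside the naming rule to pass, and none of these passed in OuJ. Among 25 assembly factors tested, Ndufaf4 (0.58 ± 0.15) of complex I and Uqcc2 (0.51 ± 0.15) of complex III rose in HeJ, and Uqcc3, also of complex III, fell (-0.47 ± 0.13). Their adjusted p were 0.0151, 0.025 and 0.0162. Uqcc3 also fell in OuJ (-0.54 ± 0.13, adjusted p = 0.00911), the only assembly factor to pass there. Of 74 mitochondrial ribosomal protein genes, 7 rose in HeJ with a list median of 0.10 (all genes -0.03), led by Mrpl52 (0.59 ± 0.14, adjusted p = 0.00903). In OuJ 1 rose, Mrps6 (0.93 ± 0.18, adjusted p = 0.00312), with a list median of -0.05.

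The chaperone pair of the mitochondrial matrix rose in both strains. Hspd1 (Hsp60) rose by 1.5 ± 0.23 in OuJ and 0.92 ± 0.23 in HeJ at 48 h, and its partner Hspe1 (Hsp10) by 1.37 ± 0.28 and 1.05 ± 0.28 (adjusted p from 0.000274 to 0.0162). They were 2 of 14 chaperones and proteases that rose in each strain, and the protease Lonp1 fell in HeJ (-0.43 ± 0.12, adjusted p = 0.0256). Among 8 antioxidant enzymes, the matrix superoxide dismutase Sod2 rose by 0.35 ± 0.09 in OuJ and 0.49 ± 0.09 in HeJ (adjusted p = 0.0179 and 0.00121), and thioredoxin 2 (Txn2) rose in HeJ (0.73 ± 0.19, adjusted p = 0.0123). Of 16 import genes, Timm23 of the inner membrane channel rose in both strains (0.33 ± 0.09 and 0.36 ± 0.09) and the outer membrane receptor Tomm20 rose in HeJ (0.46 ± 0.12).

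In glycolysis 4 of 14 genes rose in each strain at 48 h and none fell, where 3.7% of all genes rose in OuJ and 5.66% in HeJ: Ldha, Pgk1, Hk2 and Slc2a1 in OuJ, and Ldha, Pgk1, Slc2a1 and Pkm in HeJ. Ldha, lactate dehydrogenase A, rose by 0.75 ± 0.11 in OuJ and 0.55 ± 0.11 in HeJ (adjusted p = 0.000132 and 0.00186). In fatty acid oxidation 2 of 14 genes fell in OuJ, Cpt1a and Acaa2, and 3 in HeJ, the same 2 with Hadh, while none rose, and 4.21% and 6.42% of all genes fell. Cpt1a, the carnitine transferase that admits fatty acids, fell by 0.64 ± 0.16 in OuJ and 0.51 ± 0.16 in HeJ on the log2 scale (adjusted p = 0.0163 and 0.0445). In the tricarboxylic acid cycle 2 of 16 genes rose in HeJ, Idh3a and Fh1 (5.66% of all genes), and 0 passed in OuJ with limma, where 2 had an unadjusted p under 0.05. Over all genes 1718 of 8008 had such a p in OuJ at 48 h.

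Among regulators of mitochondrial biogenesis 2 of 10 passed in OuJ at 48 h and 1 of 10 in HeJ, where 7.9% and 12.1% of all genes passed. The coactivator Pprc1 rose in both strains at 48 h (0.65 ± 0.16 in OuJ and 0.64 ± 0.16 in HeJ, adjusted p = 0.0124 and 0.0108) and the nuclear receptor Esrra fell in OuJ (-0.66 ± 0.18, adjusted p = 0.0241). Gabpb1, the partner of GABPA, was lower at 24 h in HeJ (-0.56 ± 0.17, adjusted p = 0.0494) and higher at 48 h than at 24 h (0.58 ± 0.17, adjusted p = 0.0489). From 24 to 48 h in HeJ the copper chaperone Cox17, the ubiquinone synthesis gene Coq7 and Cycs rose as well (0.50 ± 0.13, 0.55 ± 0.14 and 0.44 ± 0.13), 3 of 10 in their list, where 2.62% of all genes rose. No gene of mitochondrial DNA maintenance and transcription (6 tested) or of the carriers and porins (8 tested) passed at 48 h against air in either strain, with 1 of the former in OuJ and 1 of the latter in each strain at an unadjusted p under 0.05. Over all 8008 genes, 1718 in OuJ and 2015 in HeJ had such a p at 48 h. In the strain difference of the 48 h change 0 genes of these lists passed with limma, nor did any of the 8008 genes, of which 658 had an unadjusted p under 0.05.

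Several probe sets of a gene did not always run together. Of the members, 35 have a single probe set and 37 have several that passed the filter. Among these 37 the probe sets differed in sign for 14 genes at 48 h in HeJ and for 22 at 48 h in OuJ, where most differences are near 0, and for 10 between 24 and 48 h in HeJ. For Cox5a, Atp5pb, Atp5o and Atp5j2 all kept probe sets were positive between 24 and 48 h in HeJ.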

How the data were processed

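Total RNA of single left lung lobes was extracted with TRIZOL, purified on RNeasy columns and turned into biotin-labelled cRNA, per the labels' protocols. The deposited values are linear intensity values of 22690 probe sets, made by the authors with GCOS 1.4, per the submitters' processing notes. The sources used here do not give its settings. The trimmed mean of each array lay between 499.962 and 500.391, so arrays share a scale. Detection calls were not used here.

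Probe sets with a single gene symbol were kept where the signal passed 218.3, the median of all values, on at least 3 of 24 arrays, leaving out 64 control probe sets. The probe set with the highest mean stood for a gene, which gave 8008 genes. In limma 3.58.1 (R 4.3.3, with the package data.table at version 1.17.8), lmFit and eBayes with an intensity trend were fitted to log2(signal + 16) with a mean for each of 8 groups, and 13 comparisons were adjusted by Benjamini-Hochberg over all genes of a comparison. The pseudocount understates differences of low genes. Tests are two-sided. All comparisons of a strain with air share its 3 air arrays.

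The members, the gene lists and the alternatives were chosen with earlier results of these data known. Genes named are, per complex and direction, up to 4 that passed with the smallest p, or the 2 with the smallest p where none of a complex passed, besides core subunits and sets of paralogs; from each other list up to 4 that passed were named. The labels call the mice of a group biological replicates, and the replicate numbers only name mice: deviations of arrays with the same number correlated at -0.0776 to 0.201 over 27 pairs. The fitting was tested on simulated data. The alternatives were quantile normalization, median centring, another pseudocount, filter or probe set rule, no trend, a replicate block, leaving out arrays, smaller fits and, chosen after the data were seen, a Gapdh 5′ to 3′ ratio covariate.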

Additional observations from a re-analysis of the deposited data

How the results depend on the processing

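The median difference of the members moved by less than the spread between mice under every alternative run, and in OuJ, where it lay near 0, its sign was not steady: over single arrays left out it ran from -0.03 to 0.02 at 6 h, from -0.04 to 0.02 at 24 h and from -0.05 to 0.01 between 24 and 48 h. Counts of genes that passed were less steady where they were above 0. In HeJ at 24 h the count of 1 became 0 with quantile normalization, median centring, no filter, no intensity trend, without the 4 arrays with a suffix, with only the groups compared in the fit, or with the Gapdh ratio, and ran from 0 to 1 over single arrays left out. In HeJ at 48 h the count of 5 became 3 with median centring, no filter or no intensity trend, 2 with only the groups compared and 1 without the arrays with a suffix, and ran from 1 to 6 over single arrays left out. Between 24 and 48 h in HeJ the count of 5 became 3 with median centring or no intensity trend, 1 with the Gapdh ratio, and 0 without the arrays with a suffix, within the code series or with only the groups compared, and ran from 0 to 5 over single arrays left out. In OuJ at 48 h the count was 0 to 1 over single arrays left out. The smaller fits hold fewer arrays, and the cause of the other moves was not tested. With the replicate block 4 genes passed at 48 h in HeJ, 1 at 24 h and 5 between 24 and 48 h; Cox4i2 at 48 h was the call lost, with an adjusted p of 0.052. No gene that passed changed sign. Low signal limits Cox7a1, Ndufb1 and Cox8b most.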

Other observations

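At 24 h, single genes of other mitochondrial groups passed against air, where 6.57% of all genes passed in OuJ and 7.11% in HeJ. In OuJ the complex I assembly factor Ndufaf3 fell (-0.43 ± 0.10, adjusted p = 0.00841), 1 of 25 assembly factors, while Hspd1 and Hspe1 rose by 1.23 ± 0.23 and 0.93 ± 0.28 (adjusted p = 0.00184 and 0.0481) and Sod2 by 0.42 ± 0.09 (adjusted p = 0.00639). In HeJ the complex II assembly factor Sdhaf4 fell (-0.57 ± 0.17, adjusted p = 0.0372), as did Hadh of fatty acid oxidation (-0.65 ± 0.12, adjusted p = 0.0014) and the mitochondrial ribosomal protein gene Mrps16 (-0.45 ± 0.12, adjusted p = 0.0201), and Idh3a of the tricarboxylic acid cycle rose (0.38 ± 0.11, adjusted p = 0.0324). Between 24 and 48 h in HeJ, 58 of 74 mitochondrial ribosomal protein genes had a positive difference, with a list median of 0.14, and 15 of 16 import genes did, with a median of 0.18, where 49.6% of all genes were positive and the median was -0.0029. Of these lists 3 and 0 genes passed in that comparison with limma, where 5.46% of all genes passed in either direction. At an unadjusted p under 0.05 were 12 and 2 genes of these lists. Over all genes 1664 of 8008 had such a p between 24 and 48 h in HeJ. In the strain difference of that change 0 of the 8008 genes passed with limma, with 885 at an unadjusted p under 0.05.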
